A study of Homo sapiens with 6 samples.

Results

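Among the genomic sites bound by GABPA in A-375 melanoma cells, 667 lay where the ends of at least 2 protein-coding genes meet. GABPA is the DNA-binding subunit of the transcription factor GABP. These sites are parental peaks that a peak of the ROSA26 control overlapped by 1 bp or more, and whose summit, the base of highest signal in the peak, lay within 1 kb of a span end of 2 or more RefSeq genes on chromosomes 1 to 22 and X. The parental list held 3024 peaks, of which 2969 were shared with ROSA26, and the 667 peaks near 2 or more genes were drawn from these 2969. Of the remaining control-shared peaks, 1748 lay near 1 gene and 554 lay near no gene. The peaks were thus selected on parental and ROSA26 peak positions, so their values are given as a description, while the peaks of the B1 knockout library played no part in it.

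GABP pairs GABPA, an ETS-family protein that recognises a purine-rich GGAA core, with a B subunit that carries the activation domain. Many human genes start back to back with a neighbour on the opposite strand, so that a short shared stretch, a bidirectional promoter, serves both. ETS sites are a well known feature of such promoters, which are often free of a TATA box and drive genes of metabolism, DNA repair and RNA handling that most cells use.

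The study sequenced chromatin recovered with a GABPA antibody from A-375, an established human melanoma line labelled as skin. The 3 conditions were parental cells without a knockout, cells with a ROSA26 knockout as a control for editing, and cells with exon 2 of the GABP B1 subunit knocked out and TERT then knocked in. Knockout cells were grown from single sorted cells, so each edited library stands for 1 clone, and the knockout, the TERT knock-in and the clone cannot be told apart. Each condition had 1 ChIP library, so no difference between conditions has a replicate check and none was tested. The peak lists held 3024 parental, 3857 ROSA26 and 1660 knockout peaks, and read totals were not used here. A position without a listed peak fell below the limit of the peak caller and is not shown to be unbound.

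The 8 stretches of DNA printed here each run from the start of 1 gene to the start of its divergent neighbour. They are shorter than the peaks, and for 4 of the 8 pairs (VPS52/RPS18, HARS1/HARS2, NOSIP/PRRG2 and HIGD2B/BBS4) the summit lay just outside the printed bases. They were read on the plus strand, 5′ to 3′, from RefSeq promoter sequences of GRCh38.p14, the build of the peak lists. Capitals mark the letters CCGGAAG or their reverse complement CTTCCGG, a strict form of the ETS core. The 4 pairs in the next lines had a peak in all 3 libraries. They are YIPF2 (a Golgi membrane protein) with TIMM29 (a subunit of the TIM22 import complex of mitochondria), VPS52 (a subunit of the GARP tethering complex) with RPS18 (a protein of the small ribosomal subunit), the cytosolic and mitochondrial histidyl-tRNA synthetases HARS1 and HARS2, and NOSIP (a ubiquitin ligase) with PRRG2 (a membrane protein with a Gla domain).
YIPF2/TIMM29 (chr19:10928640-10928810): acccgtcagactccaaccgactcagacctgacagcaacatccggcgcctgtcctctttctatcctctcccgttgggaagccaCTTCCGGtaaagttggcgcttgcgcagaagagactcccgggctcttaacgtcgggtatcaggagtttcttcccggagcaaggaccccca
VPS52/RPS18 (chr6:33271966-33272074): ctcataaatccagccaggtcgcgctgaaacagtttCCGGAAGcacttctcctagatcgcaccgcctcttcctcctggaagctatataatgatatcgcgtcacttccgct
HARS1/HARS2 (chr5:140691371-140691454): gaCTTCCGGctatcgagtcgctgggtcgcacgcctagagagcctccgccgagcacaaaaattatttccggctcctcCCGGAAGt
NOSIP/PRRG2 (chr19:49580557-49580616): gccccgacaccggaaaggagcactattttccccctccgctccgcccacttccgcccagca

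The 4 pairs that follow had a peak in both controls and no listed peak in the knockout. GBA2 encodes a glucosylceramidase outside the lysosome and RGP1 a subunit of a RAB6 exchange factor. RAMAC assists the mRNA cap methyltransferase, HOMER2 is a synaptic scaffold, and BBS4 is a part of the BBSome of cilia. COX4I1 is a subunit of cytochrome c oxidase and EMC8 belongs to a membrane protein insertase.
GBA2/RGP1 (chr9:35749229-35749286): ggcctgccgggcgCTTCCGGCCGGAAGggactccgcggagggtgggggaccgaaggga
HOMER2/RAMAC (chr15:82986158-82986209): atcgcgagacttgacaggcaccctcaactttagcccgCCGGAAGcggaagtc
HIGD2B/BBS4 (chr15:72686183-72686206): gggaaaccgccgaCTTCCGGccgc
EMC8/COX4I1 (chr16:85799545-85799694): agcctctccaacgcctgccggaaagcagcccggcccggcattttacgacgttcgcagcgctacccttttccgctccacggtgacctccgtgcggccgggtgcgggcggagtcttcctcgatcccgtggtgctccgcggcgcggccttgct
HARS1/HARS2 held 2 matches, and so did GBA2/RGP1, which had no knockout peak. YIPF2/TIMM29, VPS52/RPS18, HOMER2/RAMAC and HIGD2B/BBS4 held 1 each between their starts, and NOSIP/PRRG2 and EMC8/COX4I1 held none, although a match lay outside the stretch within 100 bp of the summit of both. Under the rule for printing, 13 stretches could be read, and the 8 shown were picked from them after their matches were seen. Of the 13, 3 of 5 with a knockout peak and 3 of 8 without held a match between the starts. The 5 not shown held none. A match describes letters and is not a measured binding site.

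The gene pairs under these peaks were mostly divergent. Gene strand was known for both genes at 538 of the 667 peaks, and at 433 of these (80.5%, exact Clopper-Pearson 95% interval 76.9 to 83.8) the summit lay near the starts of a pair that points apart. All intervals of this kind cover counting error only. The spans of the 2 genes were separate at 343 of the divergent peaks and overlapped at 90. At 79 peaks the start of a gene lay beside the end of its upstream neighbour on the same strand. The remaining known cases were 18 peaks at starts on the same strand, 6 at a start and an end on opposite strands, 1 where both genes on opposite strands end and 1 where both genes on the same strand end. At 129 peaks the strand of at least 1 gene was not known. In all, 642 peaks reached 2 genes and 25 reached 3, and the 667 peaks touched 1344 distinct genes.

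Divergent pairs also carried GABPA peaks more often than other neighbours when every gene pair of the genome was counted. Of 3844 pairs whose ends lie within 1 kb of each other, 696 (18.1%) had a control-shared peak near both ends. Among the 1096 divergent pairs the share was 40.5% (37.6 to 43.5), or 444 pairs. It was 24.6% (17.6 to 32.8) of 134 pairs with both starts on the same strand and 16.8% (13.6 to 20.6) of 463 pairs in which a start follows an end. The starts on the same strand lay a median of 0 bp apart, so many of those pairs have 1 annotated start in common. Where both genes on opposite strands end, 1 of 638 pairs had such a peak (0.157%, 0.00397 to 0.870). The intervals of divergent pairs and of start-with-end pairs did not overlap. Gene starts with no neighbouring gene end in reach had a control-shared peak within 1 kb in 1216 of 11121 cases (10.9%, 10.4 to 11.5), against 880 of 2160 starts of genes in divergent pairs (40.7%, 38.7 to 42.8). The same peak can count for both starts of a pair, so intervals over divergent starts are too narrow. The window around a divergent start also took in the start of its neighbour. In the knockout list, counted by its own summits, a peak stood at 6.25% of the lone starts (5.81 to 6.72) and 26.8% of the divergent ones (24.9 to 28.7). The order of the 2 sets was the same there. It is no independent check, because 1628 control-shared peaks overlapped a knockout peak and the whole knockout list held 1660 peaks.

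**Figure D1:**
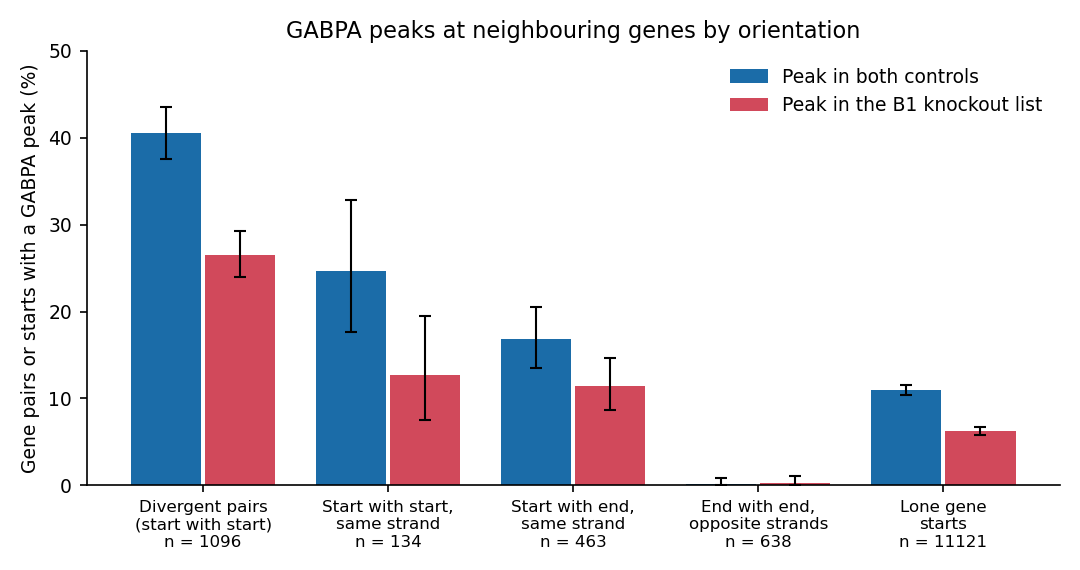
Share of gene pairs (or, at the right, of lone gene starts) with a GABPA peak within 1 kb, in percent, by orientation of the pair. Blue bars are peaks found in both controls, red bars are peaks of the knockout list, and error bars are exact 95% intervals over pairs or starts. Divergent pairs stand highest in both colours (40.5% and 26.6%), and pairs of ends on opposite strands stand at 0.157% and 0.313%.

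The closer the starts, the larger was the share of divergent pairs with a peak. A summit had to lie within 1 kb of both starts, so the searched window was shorter for starts farther apart. The part of this window in the trend was not tested. It was 50.9% (44.2 to 57.5) of 230 pairs with starts up to 100 bp apart, 42.6% (36.8 to 48.6) from 101 to 200 bp, 37.1% (31.9 to 42.6) from 201 to 400 bp and 33.1% (27.2 to 39.3) from 401 to 1000 bp. The intervals of the closest and of the widest group did not overlap, while those of neighbouring groups did.

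Peaks of divergent pairs sat close to the starts. Where the spans were separate, the starts lay a median of 153 bp apart (interquartile range 84.5 to 254.5 bp), and the summit fell between them in 233 of 343 peaks (67.9%, 62.7 to 72.8). The nearer start was a median of 35 bp from the summit and the farther start 143 bp. Where the spans overlapped, the starts lay a median of 384.5 bp apart and the summit fell between them in 15 of 90 peaks. The starts are the outer ends of the RefSeq spans, so that promoters inside a gene were not placed. At peaks joining a start to an upstream end on the same strand, the summit was nearer to the start in 75 of 79 cases (94.9%, 87.5 to 98.6), at median distances of 52 bp from the start and 410 bp from the end.

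The selection limit of 1 kb left borderline cases. Just inside were the histone gene pair H2BC12/H2AC12, whose farther gene end lay 1000 bp from the summit, TRIM35/PTK2B at 999 bp and RFNG/GPS1 at 998 bp. Just outside were BSN/APEH at 1006 bp, LAMTOR2/UBQLN4 at 1026 bp and THOC5/NIPSNAP1 at 1032 bp. Their parental folds, meaning the authors' ratio of signal at the summit to local background, ran from 4.54 to 11.6 inside and from 2.59 to 13.0 outside.

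Across the 667 peaks the parental fold ran from 2.39 to 21.1 with a median of 7.61. Peaks near 1 gene had a median of 6.71 and peaks near no gene 4.68. The folds in the overlapping ROSA26 peaks had a median of 8.76. Each library has its own background, so these folds rank peaks within a list and show no change between lists. The ranks of the parental and ROSA26 folds ran together (Spearman's rank correlation 0.908 over 667 peaks), and those of the parental and knockout folds did so over the 434 peaks with a knockout peak (0.750, against 0.826 for parental and ROSA26 over the same 434). These peaks share the genome positions and the antibody, and the correlations are a description. The ROSA26 summit lay within 50 bp of the parental summit in 90.3% of the 667 peaks (median distance 16 bp), and the knockout summit did so in 87.8% of 434 (median 19 bp).

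**Figure D2:**
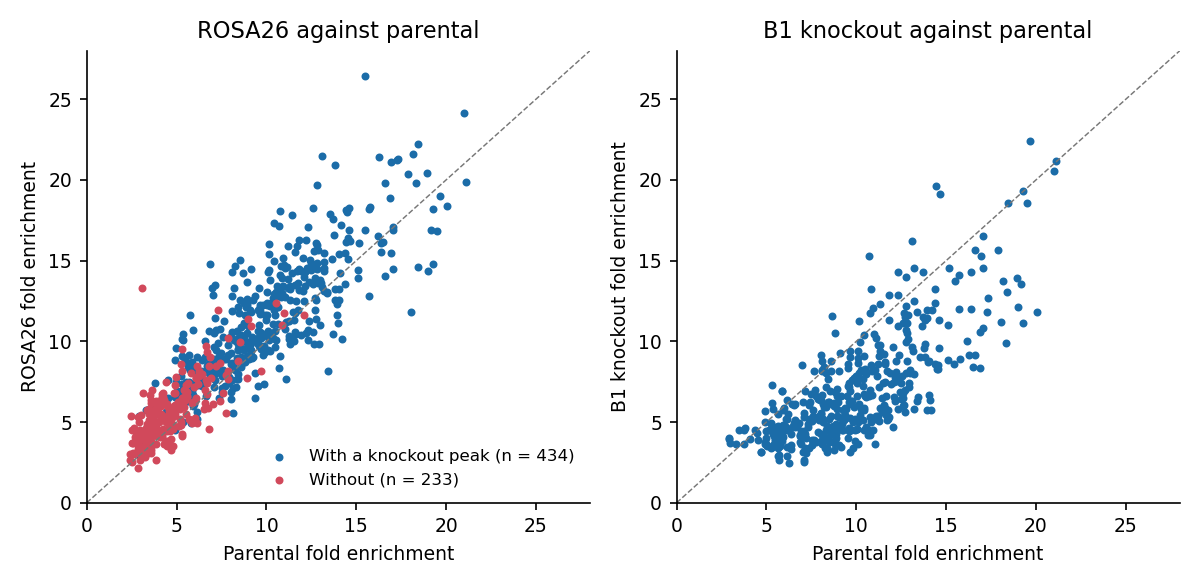
Fold enrichment of each peak in the ROSA26 list (left, 667 peaks) and in the knockout list (right, the 434 peaks with a knockout peak) against its parental fold, with the line of equal values dashed. On the left, blue points are peaks with a knockout peak and red points are the 233 without, which crowd at low folds in both controls. The lists have separate scales, so the dashed line is a guide to the eye.

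A knockout peak overlapped 434 of the 667 peaks (65.1%, 61.3 to 68.7), beside 54.8% of all 2969 peaks shared by the controls. The share was 56.6% (54.2 to 58.9) for the 1748 peaks near 1 gene and 37.0% (33.0 to 41.2) for the 554 near no gene. Strength moved with these shares, and the knockout list was also the shortest of the 3. When each list was cut to its 1660 strongest peaks by −log10 p, 380 of 419 peaks near 2 or more genes had a knockout peak (90.7%, 87.5 to 93.3), beside 87.7% (85.4 to 89.7) of those near 1 gene and 84.8% (78.8 to 89.6) of those near no gene. The order of the 3 values stayed and the gaps between them shrank.

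Within bins of parental strength the 3 kinds of peak came close to each other, except in the bin from 4.30 to 6.51. Bins were made from the parental folds of all control-shared peaks, with limits at 4.30, 6.51 and 9.60. In the weakest bin 9 of 129 peaks near 2 or more genes had a knockout peak (6.98%, 3.24 to 12.8), and 5.43% (3.39 to 8.18) of peaks near 1 gene did. In the next bin the shares were 45.5% (37.2 to 54.0) near 2 or more genes, 35.2% (30.8 to 39.9) near 1 gene and 23.5% (17.1 to 31.1) near no gene. This was the bin with the widest gaps, and there the interval of peaks near 2 or more genes overlapped that of peaks near 1 gene and not that of peaks near no gene. Median parental folds inside this bin were 5.38, 5.26 and 4.95 in the same order, so strength was not fully equal. The part of this in the gaps was not tested. Above a fold of 6.51 the shares were 82.4%, 80.1% and 82.3%, and above 9.60 they were 97.8%, 97.7% and 95%, with overlapping intervals in both bins.

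**Figure D3:**
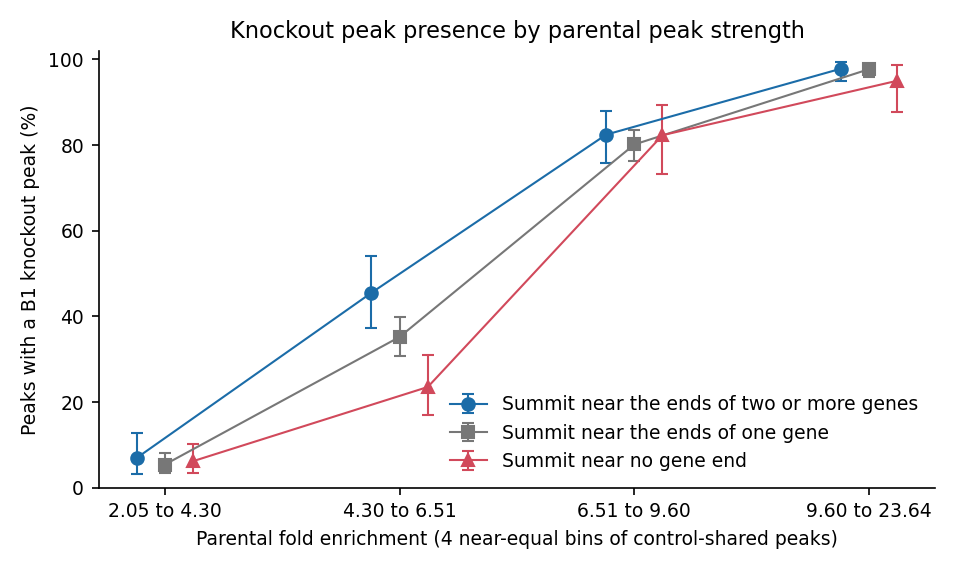
Percentage of control-shared peaks that a knockout peak overlapped, by bin of parental fold, for peaks near 2 or more genes (circles), 1 gene (squares) and no gene (triangles). Error bars are exact 95% intervals over peaks. All 3 lines climb from under 7% to 95% or more, and they part in the bin from 4.30 to 6.51.

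By orientation of the genes, the shares with a knockout peak lay close together and their intervals overlapped. The knockout peak was present at 287 of 433 divergent peaks (66.3%, 61.6 to 70.7) and at 69 of 105 peaks of other known orientation (65.7%, 55.8 to 74.7). At peaks of unknown orientation the share was 60.5% (51.5 to 69.0). Divergent pairs with separate spans kept it in 67.6% (62.4 to 72.6) and those with overlapping spans in 61.1% (50.3 to 71.2). By distance between separate or overlapping starts the share was 63.8% up to 100 bp, 70.3% from 101 to 200 bp, 69.2% from 201 to 400 bp and 60.8% from 401 to 1000 bp, with intervals that all overlapped. The 25 peaks that reached 3 genes kept a knockout peak in 11 cases (44.0%, 24.4 to 65.1), and their median parental fold was 6.16.

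The 10 strongest parental peaks of the set all had a knockout peak, and 7 of them were known to be divergent. The strongest lay at chr1:9942970-9943779 between LZIC, a small protein with a leucine zipper, and NMNAT1, which makes NAD in the nucleus, with folds of 21.1 in parental, 19.9 in ROSA26 and 21.2 in knockout cells. KCTD10, an adaptor of cullin ligases, and UBE3B, a ubiquitin ligase, shared the peak at chr12:109476966-109477860 with 21.0, 24.1 and 20.5. For GIN1, a gene derived from a transposon integrase, and PPIP5K2, an inositol pyrophosphate kinase, the folds were 20.0, 18.4 and 11.8 at chr5:103119785-103120574. These 3 pairs were high in every library, and no functional list used here held both genes of any of them.

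NOSIP/PRRG2, printed earlier, had folds of 19.7, 19.0 and 22.4 in parental, ROSA26 and knockout cells. YIPF2/TIMM29 had 19.3, 14.8 and 11.1, and VPS52/RPS18 had 19.3, 18.2 and 19.3. The summit of the RPS18 pair lay 41 bp from the start of VPS52 and 151 bp from that of RPS18, outside the stretch between them. The other 4 were IPO4 (an importin) with TM9SF1 at 19.5 in parental cells, CCAR2 with C8orf58 at 19.2, VPS9D1 with ZNF276 at 19.0, and USPL1 (a SUMO protease) with HMGB1 (an abundant chromatin protein) at 18.9. In the knockout list these 4 had folds from 12.2 to 18.6.

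Among the 233 that lacked a listed peak in the knockout, the 10 strongest had parental folds from 8.40 to 12.1, a range in which most peaks kept theirs. The strongest of these was at chr15:90929841-90930481, 36 bp from the start of UNC45A, a myosin chaperone, and 176 bp from the end of HDDC3, with 12.1 in parental and 11.6 in ROSA26 cells. The peak with its summit 574 bp inside PRR3, and 794 bp from the start of the divergent GTPase gene GNL1, had 11.0 and 11.8. Both stood well above the parental median of 7.61.

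GBA2/RGP1, whose stretch holds 2 abutting matches, had folds of 10.5 in parental and 12.4 in ROSA26 cells at chr9:35748921-35749577. APOM, an apolipoprotein, and BAG6, a chaperone of tail-anchored proteins, shared a peak of 9.73 and 8.16. HIGD2B/BBS4 had 9.0 and 11.4, and HOMER2/RAMAC had 8.95 and 7.70. Others were TRAPPC14/GAL3ST4 at 9.12 in parental cells, ATP6V1E1 (a V-ATPase subunit) with BCL2L13 at 8.52, and PEX11A (a peroxisome protein) with WDR93 at 8.40. All 10 were clear peaks in both controls, and 7 of them were known to be divergent.

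At the other end, the 5 weakest parental peaks with a knockout peak had parental folds from 2.91 to 3.49. ZBTB48, a telomere-binding zinc finger protein, starts 9 bp from a summit that lies 248 bp from the end of the taste receptor gene TAS1R1, with folds of 2.91, 5.39 and 3.99 in parental, ROSA26 and knockout cells. TTC31/CCDC142 had 2.95, 3.83 and 3.97. ETV4, itself an ETS factor, and the RNA helicase gene DHX8 had 2.99, 2.90 and 3.72. The other 2 were C9orf78/USP20 at 3.30 and SYNRG/DDX52 at 3.49 in parental cells.

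The start-with-end peaks reached a parental fold of 18.2, beside 21.1 for the divergent ones. RHOT2, a GTPase of the mitochondrial outer membrane, starts 15 bp from a summit that lies 268 bp from the end of WDR90, with folds of 18.2, 21.6 and 13.7 in parental, ROSA26 and knockout cells. The endocytosis gene EPN1 starts 96 bp from the summit downstream of the splicing factor gene U2AF2, with 17.2, 21.3 and 11.8. DDOST, a subunit of the oligosaccharyltransferase, starts beside the end of KIF17 with 14.5, 15.1 and 8.28. In each of these the summit was nearer to the start.

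MYG1 beside the end of PFDN5 (a prefoldin subunit) had folds of 14.4, 16.1 and 8.63. PMPCB, a subunit of the mitochondrial processing peptidase, ends 96 bp from the summit at which PSMC2, a proteasome ATPase, starts 114 bp away, with 14.4, 13.5 and 12.3. Among starts on the same strand, 4 of the 5 strongest (NME1-NME2/NME1, ISY1-RAB43/ISY1, DNAJC25-GNG10/DNAJC25 and CFAP298-TCP10L/CFAP298) were a gene and its own readthrough entry, with parental folds from 13.6 to 15.7. Such pairs share a promoter by annotation. The fifth was FKBP2/LOC114841035 at 11.4.

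A start facing the end of a gene on the opposite strand was rare. BAD, a pro-apoptotic BCL2 relative, ends 211 bp from a summit near the start of GPR137 and an end of PLCB3, with folds of 16.3, 21.4 and 9.19. CNBD2/SCAND1 had parental and knockout folds of 12.3 and 10.9, ANKAR/OSGEPL1 had 5.26 and 4.85, and SFT2D3/WDR33 had a parental fold of 4.25 and no knockout peak. The only peak where genes on opposite strands end was OAZ1/PEAK3 (6.83, no knockout peak), and the only one where genes on the same strand end was ZNF660-ZNF197/ZNF197 (8.12, with one). Among the peaks that reached 3 genes the strongest after that of BAD were PRDX5/ESRRA/TRMT112 (13.7), NGRN/CIB1/TTLL13 (12.9), BORCS8-MEF2B/BORCS8/RFXANK (11.3) and TF/TOPBP1/LOC124909487 (10.7), all with a knockout peak.

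For 16 gene pairs known from textbooks and reviews as bidirectional or tightly linked, 8 were in the set. SURF1, an assembly factor of cytochrome c oxidase, and SURF2 shared a peak with folds of 11.6, 12.5 and 6.60 in parental, ROSA26 and knockout cells. GABPA itself and ATP5PF, a subunit of the mitochondrial ATP synthase, start 90 and 591 bp from the summit of the peak at chr21:25734644-25735965, with 13.2, 14.3 and 12.5. HARS1/HARS2 had 13.8, 16.6 and 9.57. These 3 pairs were well above the median of 7.61 in parental cells.

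FEN1, the flap endonuclease of DNA replication, and TMEM258 had folds of 12.2, 16.3 and 8.12. The DNA damage kinase gene ATM and NPAT, a regulator of histone genes, had 5.02, 6.90 and 3.53. The other 3 had no knockout peak. They were the chaperonins HSPD1/HSPE1 (4.72 in parental and 5.65 in ROSA26 cells), COX4I1/EMC8 (4.45 and 4.44) and the purine synthesis gene GART with the splicing factor gene SON (5.56 and 6.64), whose summit lay 765 and 910 bp from the starts. TCP1/ACAT2, TRMT2A/RANBP1, SSBP1/WEE2 and GLA/RPL36A had a control-shared peak near 1 of the genes, and MRPS12/SARS2, PPAT/PAICS and TAP1/PSMB9 had none.

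The genes under these peaks serve many functions, and a peak seldom joined 2 genes of the same functional list. Of the 1344 genes, 527 (39.2%, 36.6 to 41.9) were on at least 1 of 19 functional lists, against 20.0% (19.4 to 20.5) of all 19974 protein-coding genes and 49.2% (46.8 to 51.5) of genes at control-shared peaks near 1 gene. Among genes of divergent pairs the share on a list was 39.9% (36.6 to 43.2) with a control-shared peak and 30.1% (27.6 to 32.7) without. Results of these data were known when the lists were made, so these shares are a description. At 105 peaks 2 or more of the genes were listed, at 320 peaks 1 was, and at 242 none was.

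Of the 667 peaks, 15 (2.25%, 1.26 to 3.68) joined 2 genes of the same list. Among all divergent gene pairs of the genome, 39 of 1081 (3.61%, 2.58 to 4.90) had both genes on 1 list, with overlapping intervals. The first count is over peaks of every orientation and the second over divergent gene pairs alone, so the 2 shares cover unlike sets. Genes such as KCTD10 and AGO1 were on no list, so these counts depend on how the lists were drawn. Of the 15 peaks, 5 had a knockout peak (33.3%, 11.8 to 61.6), beside 65.1% of all 667 peaks. The 5 were HARS2/HARS1, the zinc finger pairs ZNF461/ZNF567 (parental fold 11.4), ZNF829/ZNF568 (10.1) and ZNF490/ZNF791 (9.51), and the DNA repair pair SMC6/GEN1 (8.86). They were the 5 strongest of the 15. The 10 without a knockout peak had parental folds from 3.00 to 7.28. These were ZNF528/ZNF880, PRKDC/MCM4 (DNA repair kinase and replicative helicase), ZNF446/ZNF324, HSPD1/HSPE1, the histone genes H2BC12/H2AC12, RNF31/PSME2, ZSCAN32/ZNF174, EXOC5/AP5M1, ZNF425/ZNF398 and the autophagy and adaptor genes ATG12/AP3S1. Among divergent pairs of the genome, 11 of 39 with both genes on 1 list had a control-shared peak (28.2%, 15.0 to 44.9), beside 425 of 1042 other pairs (40.8%, 37.8 to 43.8), with overlapping intervals.

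Other peaks joined genes of different lists, and these are given as examples without a genome-wide count. Cell cycle genes shared a peak with proteasome or ubiquitin genes at 5 peaks (KIF9/KLHL18, DCAF16/NCAPG and CEP44/FBXO8 with a knockout peak, DERL2/MIS12 with 2 peaks and none in the knockout). Genes of the cytosolic ribosome shared a peak with genes of vesicle traffic at 3 peaks, all with a knockout peak. These were VPS52/RPS18, RPS25/TRAPPC4 (parental fold 13.2) and RAB13/RPS27 (6.73). Mitochondrial ribosome genes shared a peak with genes of DNA repair in MRPS34/EME2 (17.1) and MRPL27/EME1 (9.51), where EME1 and EME2 are partners of the MUS81 nuclease, and both had a knockout peak. The gene of the basal transcription factor TBP shared a peak with that of the proteasome subunit PSMB1 (8.10), and EIF2B1, an initiation factor subunit, with GTF2H3 of TFIIH (16.6), both with a knockout peak. Some other combinations lacked one. Genes of the autophagy, endosome and secretion list shared 3 peaks with genes of oxidative phosphorylation. Of these, SRPRA/FOXRED1 had a knockout peak and STXBP2/PET100 and COX4I1/EMC8 did not. No knockout peak was listed at MBD5/ORC4 and SAP30BP/RECQL5 (DNA replication and repair with chromatin), at COG4/SF3B3 and STXBP2/XAB2 (vesicle traffic with the spliceosome) or at IK/NDUFA2 and PET100/XAB2 (oxidative phosphorylation with the spliceosome). STXBP2, PET100 and XAB2 lie at the same peak.

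A gene on a mitochondrial list lay at 92 of the peaks. Of these, 70 had a knockout peak (76.1%, 66.1 to 84.4), against 63.3% (59.2 to 67.3) of the other 575 peaks, and the median parental folds were 9.51 and 7.28. Within bins of parental fold the shares were 11.1% and 6.67%, 50% and 45.0%, 78.3% and 83.1%, and 97.7% and 97.8%, from the weakest to the strongest bin, with mitochondrial genes given before the others. The intervals overlapped in each bin. The other peaks can still hold genes of mitochondrial proteins that are on none of these lists, such as RHOT2. Both genes were on a mitochondrial list at 4 peaks. SDHD, a subunit of succinate dehydrogenase, and the import chaperone TIMM8B had folds of 12.7, 16.1 and 9.97 in parental, ROSA26 and knockout cells. MRPL43 and TWNK, the helicase of mitochondrial DNA, had 9.99, 11.3 and 7.83, and MRPL47/NDUFB5 had 8.16, 7.09 and 5.04. HSPD1/HSPE1 was the fourth and had no knockout peak.

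By list, beside the 65.1% of all 667 peaks, a knockout peak was present at 12 of 13 peaks for translation factors (92.3%, 64.0 to 99.8), 10 of 11 for mitochondrial expression and RNA processing, 27 of 34 for oxidative phosphorylation, 15 of 19 for the mitochondrial ribosome and 31 of 41 for tRNA and rRNA modification. For mitochondrial import and proteases it was 13 of 17, and for mitochondrial carriers and other mitochondrial genes 8 of 14 (57.1%, 28.9 to 82.3). It was present at 17 of 33 for DNA replication and repair (51.5%, 33.5 to 69.2) and 8 of 14 for the cytosolic ribosome. The cell cycle and the chromatin lists each had 20 of 34. Median parental folds were 10.9 for translation factors and 11.2 for mitochondrial expression, against 6.65 for DNA replication and repair and 6.45 for the cytosolic ribosome. The list of mitochondrial carriers had a median of 9.08 with its lower share, so share and strength did not run together in every list. The intervals of these lists are wide and that of translation factors overlaps that of DNA replication and repair. The lists were made with results of these data known.

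The ETS core letters were common under these summits. RefSeq promoter sequence covered the 201 bp around the summit at 347 of the 667 peaks. CCGGAAG or its reverse complement, on either strand, occurred at least once in 234 of them (67.4%, 62.2 to 72.3) and in 2 or more copies in 64 (18.4%, 14.5 to 22.9). Control-shared peaks near 1 gene had shares of 60.5% (56.5 to 64.4) and 14.4% (11.7 to 17.5) over 610 peaks. In all 22132 protein-coding promoter windows of the same length, from 151 bp before the start to 49 bp after it, the shares were 10.8% and 1.78%. The closest match lay within 50 bp of the summit in 193 of the 234 (82.5%, 77.0 to 87.1), at a median of 19 bp.

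**Figure D4:**
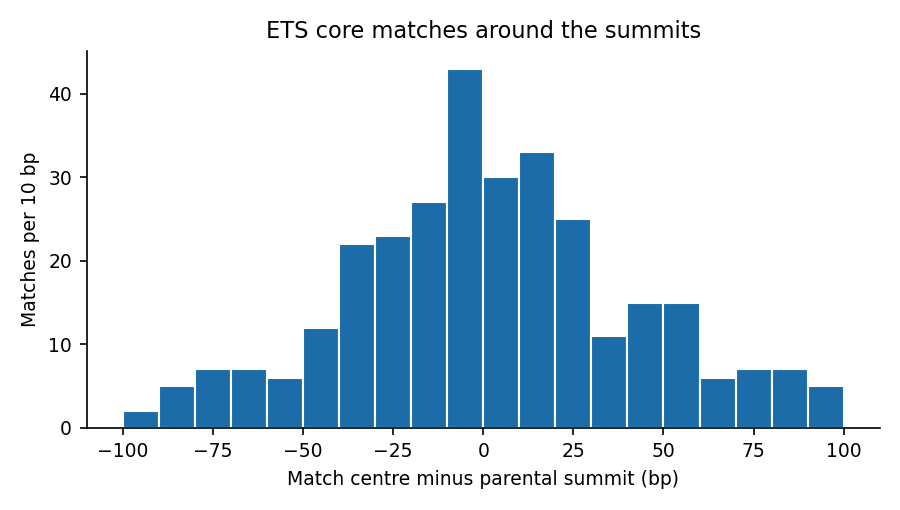
Number of CCGGAAG or CTTCCGG matches per 10 bp, by distance of the match centre from the parental summit in bp, over the 347 covered peaks near 2 or more genes. The matches heap up at the summit and thin out towards 100 bp on both sides.

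Matches went with parental strength. The share with at least 1 match was 37.7% (24.8 to 52.1) in the weakest bin, 65.3% and 64.4% in the next 2 and 82.6% (75.0 to 88.6) in the strongest. At least 2 matches were present in 3.77%, 2.78%, 17.8% and 33.3% from the weakest to the strongest bin. Peaks with a knockout peak held a match in 72.1% (65.9 to 77.7) and peaks without in 57.0% (47.1 to 66.5). A knockout peak was present at 59.3% of peaks with no match, 68.8% with 1 match and 87.5% with at least 2, whose median parental folds were 6.21, 8.26 and 11.2. Within the bin from 4.30 to 6.51 these shares were 52.0% of 25, 37.8% of 45 and 1 of 2 peaks, and in the bin from 6.51 to 9.60 they were 90.6% of 32, 83.3% of 42 and 75.0% of 16. No rise with the number of matches was seen at like strength.

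**Figure D5:**
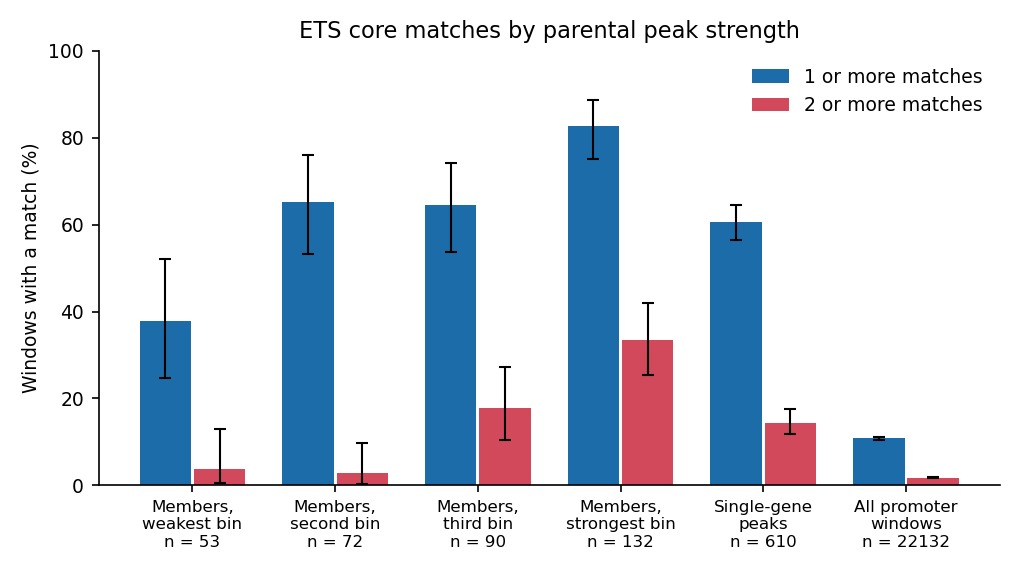
Share of 201 bp windows with at least 1 (blue) or at least 2 (red) matches of the ETS core letters, in percent, for peaks near 2 or more genes by bin of parental fold, for control-shared peaks near 1 gene and for all promoter windows. Error bars are exact 95% intervals, and the red bars reach 33.3% only in the strongest bin against 1.78% of all promoter windows.

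Between the starts themselves, 311 divergent pairs had a stretch that the promoter sequences covered. A match lay in 144 of these stretches (46.3%, 40.7 to 52.0). It did in 118 of 217 with a knockout peak (54.4%, 47.5 to 61.1) and in 26 of 94 without (27.7%, 18.9 to 37.8), and at least 2 matches lay in 26 and 1 of these stretches. The intervals of the 2 groups did not overlap, and median lengths were 147 and 143.5 bp. Parental strength was not held equal in this comparison. Matches faced both ways, with 75 reading CCGGAAG on the plus strand and 98 on the minus strand.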

How the data were processed

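GABPA ChIP-seq peak lists of 3 ChIP libraries were used, and the 3 inputs were not analysed here on their own. Bowtie2, SAMtools and MACS2 were used on hg38, per the submitters' processing notes. Their versions and the thresholds are not given there or elsewhere in the sources used here. Deposited lists, 1 per library, give for each peak the authors' fold enrichment (a ratio of summit signal to local background), the authors' −log10 p and −log10 q, a deposited score that was not used for any result, and the authors' summit offset.

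Summits were set against spans of 19974 RefSeq protein-coding genes (GRCh38.p14). Strand came from RefSeq promoter sequences (250 bp before to 50 bp after each start), which matched 15813 of the genes. Overlap of 1 bp counted as shared. Shares carry exact Clopper-Pearson 95% intervals, computed with SciPy 1.17.1, pandas 2.3.3 and Python 3.11.15. The overlap and orientation code was tested on simulated data. Conditions with a single library each allow no test.

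The members, the functional lists and the rules were chosen with earlier results of these data known. Pairs were named by rule: the 10 strongest, the 10 strongest without and the 5 weakest with a knockout peak, the peaks with most genes, pairs within and across lists, the 5 strongest of each other orientation, the peaks at the 1 kb limit and 16 textbook pairs. Pairs across lists were named in part. Some named pairs are not reported here. Alternatives covered the distance limit, overlap, threshold, list length, readthrough entries, starts only and the motif settings.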

Additional observations from a re-analysis of the deposited data

How the results depend on the processing

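Of 53 alternative values, 38 stayed within their 95% interval or within 1.5 times the count, and 15 moved. Lists of equal length raised the share with a knockout peak to 90.7% near 2 or more genes, 91.4% for divergent pairs, 90.2% for other orientations, 87.7% near 1 gene and 84.8% near no gene. By construction they hold stronger peaks. A −log10 q of at least 10 gave 53.5% near 1 gene, and counting starts alone gave 43.4% near no gene. The divergent share was 85.4% at 500 bp, 72.8% at 2 kb and 95.6% with starts alone, which removes pairs that involve an end. Genome pairs with ends within 2 kb had a peak in 37.2% (divergent) and 9.99% (start with end). Without the zinc finger list, 8 peaks joined genes of the same list. Settings chosen after seeing the data gave a match at 83.9% of peaks for CGGAAG and at 55.8% within 50 bp. For the other moved values the cause was not tested.

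No paired analysis was possible because each condition has 1 library. Read totals were not used, so the part of depth in the missing weak peaks was not tested.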

Other observations

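Several peaks joined a housekeeping gene to a gene known for expression in few tissues. These pairs were chosen after the member names were seen, and expression was not measured here. A start here is the outer end of a RefSeq span. Promoters inside a gene were not placed, so these starts are not shown to be those used in the tissues named. TF, the serum iron carrier transferrin of the liver, starts 8 bp from a summit it shares with TOPBP1, with folds of 10.7 in parental, 12.1 in ROSA26 and 4.53 in knockout cells. HPD, an enzyme of tyrosine breakdown in the liver, shared a peak with the proteasome gene PSMD9 with 11.3, 11.2 and 5.08. GDF9, a growth factor of the oocyte, starts 20 bp from a summit shared with UQCRQ of respiratory complex III, with 8.57, 8.53 and 8.18. SCN11A, a sodium channel of sensory neurons, starts 12 bp from a summit shared with WDR48, with 5.60, 6.31 and 4.18. The natural killer cell receptor gene KLRG1 shared a peak with M6PR, with 7.63, 11.2 and 8.18. OTC, the liver enzyme of the urea cycle, lay opposite RPGR at 3.93 and 4.16 in the controls, with no knockout peak. BTK, a kinase of B cells, lay near 2 weak peaks (3.81 and 3.69 in parental cells), 1 at its start and 1 at its end, and neither had a knockout peak.

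Only HNRNPUL2/TTC9C and DERL2/MIS12 had 2 parental peaks each in the set. At HNRNPUL2/TTC9C the parental folds were 9.59 and 3.10, both parental peaks overlapped a ROSA26 peak of fold 13.3, and a knockout peak overlapped only the stronger. At DERL2/MIS12 the parental folds were 5.44 and 4.21, and neither had a knockout peak.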
